A study of Homo sapiens with 24 samples.

Results

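FEZF1, FEZF1-AS1 and FEZF2 are 3 of the 61248 features counted in RNA of the human embryonic stem cell line H7, and they were picked by name because all 3 stood higher in BRAT1 knockout than in control libraries at day 14. Stem cells were sampled at day 0 and, after ventral differentiation, as neural progenitors at day 14. At each day there were 2 control lines, called lines 1 and 2, and 2 BRAT1 knockout lines, also called 1 and 2, with 3 biological replicates per line lettered A, B and C, which gives 24 libraries. All lines come from 1 stem cell line, each genotype rests on 2 lines, and how the lines were edited or whether each is a single clone is not given in the sources used here. BRAT1 encodes a protein that binds the Integrator complex and has a role in the DNA damage response.

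FEZF1 and FEZF2 encode closely related zinc finger transcription factors that repress their targets by recruiting Groucho (TLE) co-repressors through a short Eh1 motif. Both are textbook markers of the early rostral forebrain, and FEZF2 later specifies the deep-layer cortical neurons that project to the brain stem and spinal cord. FEZF1 is known for the growth of olfactory axons and for the passage of gonadotropin-releasing hormone neurons into the brain, and FEZF1-AS1 is a long non-coding RNA gene on the opposite strand of FEZF1.

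On GRCh38, as annotated by GENCODE release 29, FEZF1 (ENSG00000128610) occupies chr7:122301394-122310691 on the minus strand, with 2612 bases of exon. FEZF1-AS1 (ENSG00000230316) occupies chr7:122303658-122310077 on the plus strand, with 3313 bases of exon. The exons of the pair overlap in 611 bases, which is 23.4% of FEZF1 exon and 18.4% of FEZF1-AS1 exon. FEZF2 (ENSG00000153266) occupies chr3:62369681-62374324 on the minus strand, with 2193 bases of exon, and no annotated gene overlaps its exons on the other strand. The start of FEZF1-AS1 and the same bases read along FEZF1 (chr7:122303658-122303717) show why a read from the overlap can be named only if its strand is known. Capitals mark the first 12 bases of FEZF1-AS1 on the plus strand and their reverse complement on the minus strand:
FEZF1-AS1, plus strand: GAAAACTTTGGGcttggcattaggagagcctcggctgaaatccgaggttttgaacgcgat
FEZF1, minus strand: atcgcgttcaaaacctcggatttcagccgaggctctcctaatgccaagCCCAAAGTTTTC

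The start region of a FEZF1 transcript is shared as well. By the GENCODE coordinates above this region lies inside the FEZF1 gene, whose 5′ end is at chr7:122310691. Below are the 250 bases before the FEZF1 start in RefSeq's annotation of GRCh38.p14 (chr7:122304751-122305000, minus strand), shown because the 51 bases in capitals are also exon of a FEZF1-AS1 transcript on the other strand. This window holds 1 CCAAT, at position 168 counted from its 5′ end, and 1 GGGCGG, the core of a GC box, at position 149. On either strand, CCAAT occurs in 32.0% and GGGCGG in 42.6% of 35116 promoter windows of this length. The homeodomain core TAATTA, found in 4.35% of those windows, has no match here:
FEZF1 promoter: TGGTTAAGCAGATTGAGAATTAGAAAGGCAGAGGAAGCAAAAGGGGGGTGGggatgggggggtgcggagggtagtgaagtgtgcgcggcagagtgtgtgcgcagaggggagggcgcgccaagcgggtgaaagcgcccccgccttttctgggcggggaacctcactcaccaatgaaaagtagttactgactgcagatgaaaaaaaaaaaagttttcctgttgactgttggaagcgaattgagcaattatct

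FEZF1 and FEZF2 are paralogs, so the transcripts were compared for stretches whose reads could fit both. The longest identical run was 32 bases, inside the zinc finger coding sequence. In the 92 bases around it (FEZF1 chr7:122302193-122302284 and FEZF2 chr3:62370180-62370271, both minus strand, GRCh38) 83 bases match and the 9 in capitals differ:
FEZF1: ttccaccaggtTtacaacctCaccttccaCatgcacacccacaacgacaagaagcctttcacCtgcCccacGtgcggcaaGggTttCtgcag
FEZF2: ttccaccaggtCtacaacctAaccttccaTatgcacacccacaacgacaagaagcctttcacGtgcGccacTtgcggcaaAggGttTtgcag

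Library totals were 1407832 to 2143871 counts at day 0 and 2228736 to 3726227 at day 14. A count of 0 allows a level of up to 1.40 to 2.13 CPM (counts scaled by the library's total) at day 0 and 0.805 to 1.35 CPM at day 14, taken as 3 counts per library and covering counting error only. BRAT1 itself stood at 252 ± 45.9 CPM (SD, n = 6) in day 14 controls and 46.2 ± 38 CPM (SD, n = 6) in day 14 knockouts, with no overlap. At day 0 it stood at 0.657 ± 1.18 and 1.69 ± 2.73 CPM, too low to check the day 0 labels. The stem cell factor POU5F1 averaged 37.3 ± 22.3 CPM in day 0 controls and 2.58 ± 1.07 CPM in day 14 controls (SD, n = 6 each), while LIN28A, also a stem cell marker, was higher at day 14, at 61.8 against 11.2 CPM. The strand setting of the counting is not given in the sources used here. Among 434 pairs of a coding gene with its antisense partner, each sharing 100 or more exon bases and holding 100 or more counts at day 14, 292 (67.3%) had more counts under the antisense name. TALAM1, the gene opposite MALAT1, held 6.91% of all counts in the 24 libraries, and MALAT1 held 0.00444%. Whether reads were assigned to the strand opposite their RNA was not tested. The counts are therefore given below by name, and those named FEZF1 and FEZF1-AS1 are not assigned to either RNA. The same limit holds for FEZF2, BRAT1, the neighbours, the list genes and the markers, also where no gene lies opposite.

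FEZF1, the transcription factor of the olfactory and forebrain program, had few counts in day 14 controls and many more in knockouts. In replicates A, B and C, control line 1 held 36, 57 and 40 counts of FEZF1 and control line 2 held 28, 18 and 43. Knockout line 1 held 521, 622 and 661, and knockout line 2 held 442, 389 and 604. All 6 knockout libraries were higher than all 6 controls, at 178 ± 36.1 CPM (SD, n = 6, 122 to 227) against 12.1 ± 5.62 CPM (SD, n = 6, 5.30 to 19.3). The knockout mean was 14.6 times the control mean, the lowest knockout library was 6.32 times the highest control, and each knockout line over each control line gave 11.5 to 18.6, over 4 line pairings. The edgeR fit gave a log2 fold change of 3.88 (SE 0.26), which is a description with no test because FEZF1 was chosen on this contrast. In bulk RNA, more cells of a type and more RNA per cell cannot be told apart.

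FEZF1-AS1, the long non-coding RNA gene opposite FEZF1, had the most counts of the 3 in the knockouts. At day 14, control line 1 held 72, 65 and 45 counts of it in replicates A, B and C, and control line 2 held 66, 44 and 33. Knockout line 1 held 1130, 1272 and 1788, and knockout line 2 held 990, 934 and 1083. The groups did not overlap, with 16.7 ± 3.04 CPM (SD, n = 6, 13 to 20.4) in controls and 391 ± 74.6 CPM (SD, n = 6, 293 to 480) in knockouts. The ratio of means was 23.4, the lowest knockout was 14.3 times the highest control, and the line pairings gave 18 to 29.8. The log2 fold change was 4.53 (SE 0.17), again with no test.

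Counts named FEZF2, the selector of deep-layer projection neurons, were at the edge of detection in day 14 controls. With the strand setting not given, this does not show how much FEZF2 RNA the controls held. Control line 1 held 2, 4 and 2 counts of FEZF2 and control line 2 held 0, 3 and 0, whereas knockout line 1 held 28, 62 and 172 and knockout line 2 held 104, 70 and 110. The highest control had 1.26 CPM and the lowest knockout 10.4 CPM, and the means were 0.555 ± 0.495 and 28.8 ± 12.8 CPM (SD, n = 6 each). The ratio of means was 51.8 and the log2 fold change 5.52 (SE 0.48), with no test. This ratio is the least precise of the 3, since the controls hold 11 counts in all and the line pairings gave 32.4 to 106.

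**Figure D1:**
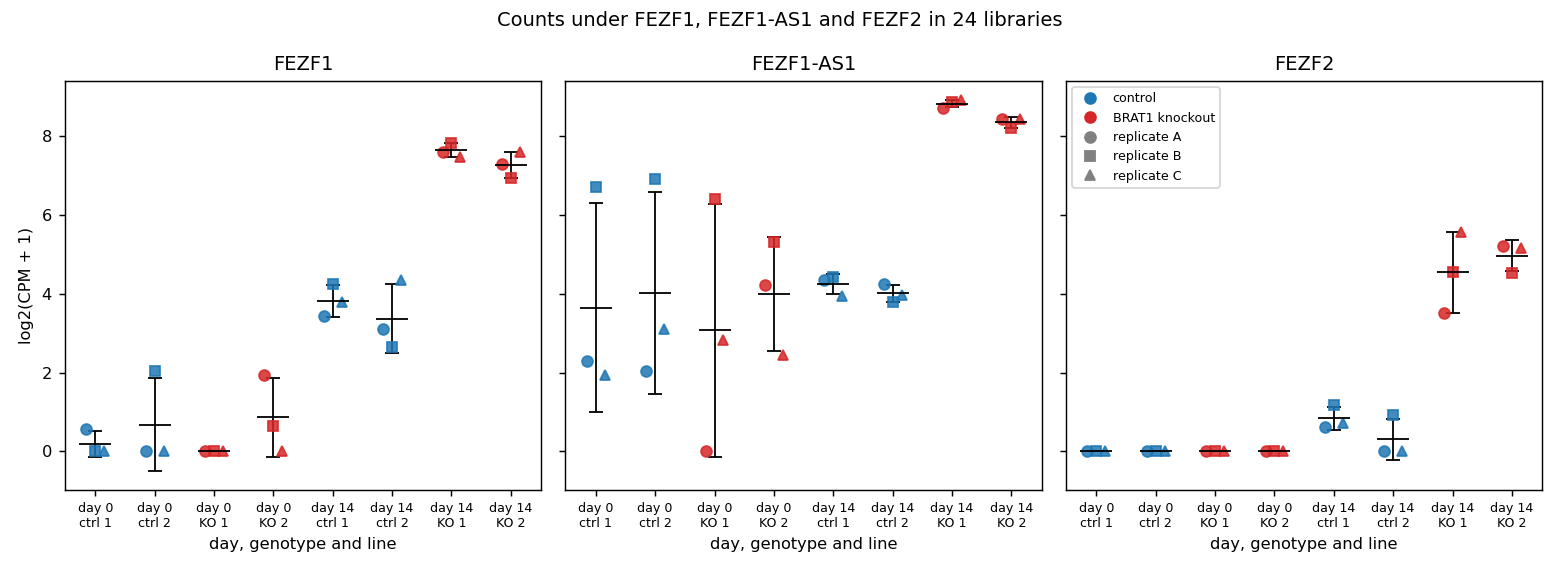
Each point is 1 library, with log2(CPM + 1) of FEZF1, FEZF1-AS1 and FEZF2 by genotype, line and day. Black marks give the mean and SD of each line and day. At day 14 every knockout library lies above every control, and at day 0 FEZF2 is at 0 in all 12 libraries.

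Per kilobase of exon, the day 14 knockout levels were ordered FEZF1-AS1, FEZF1, FEZF2. They stood at 118 ± 22.5, 68.1 ± 13.8 and 13.1 ± 5.84 CPM per kb (SD, n = 6). In day 14 controls FEZF1-AS1 and FEZF1 did not differ beyond their spread on this scale, at 5.05 ± 0.917 and 4.65 ± 2.15 CPM per kb, while FEZF2 lay below both at 0.253 ± 0.226 CPM per kb (SD, n = 6). The order of FEZF1 and FEZF1-AS1 rests on the names under which overlapping reads were counted.

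Within the pair, FEZF1 held 31.0% of 10436 summed counts in day 14 knockouts and 40.6% of 547 in controls. By library its share was 31.2 ± 3.00% (SD, n = 6, 27.0 to 35.8) in knockouts and 40.4 ± 11.3% (SD, n = 6, 29 to 56.6) in controls, so the groups overlapped. Across the 434 antisense and coding pairs the median coding share was 21.4%, and 250 pairs had a lower share than the 31.5% of FEZF1 over all day 14 libraries. At day 0 the controls held 6 FEZF1 and 370 FEZF1-AS1 counts and the knockouts 7 and 272. Of the FEZF1 counts, 5 were in control line 2 replicate B and 6 in knockout line 2 replicate A, so no share is given for day 0.

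**Figure D2:**
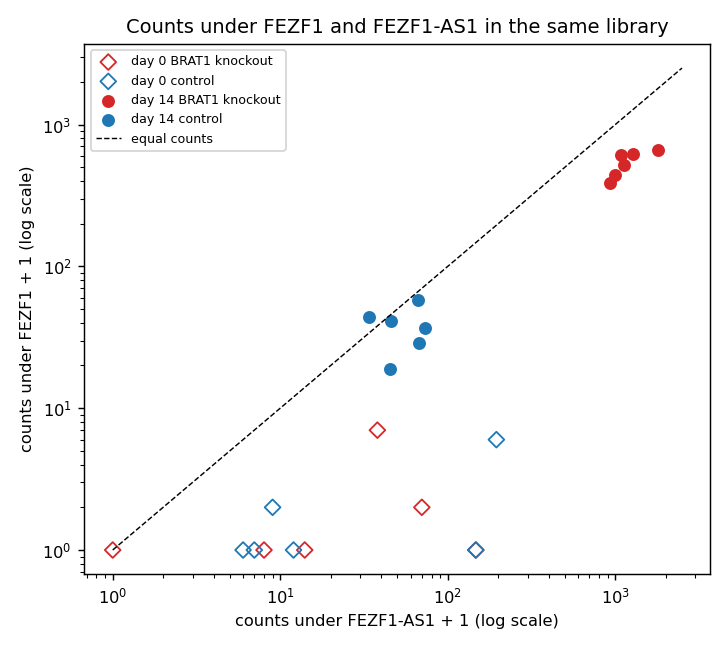
Counts named FEZF1-AS1 and FEZF1 are plotted against each other for the 24 libraries by genotype and day. Day 14 knockouts lie at 389 to 661 FEZF1 counts, day 14 controls at 18 to 57, and day 0 libraries at 0 to 6.

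FEZF2 did not keep a fixed ratio to the other locus. Per 100 counts of FEZF1-AS1 it had 7.52 ± 3.25 counts in day 14 knockouts (SD, n = 6, 2.48 to 10.5). Within knockout line 1 FEZF2 had a coefficient of variation of 68.8% over the 3 replicates, against 6.78% for FEZF1-AS1 and 12.6% for FEZF1. Within knockout line 2 these were 25.6%, 9.23% and 22.4%.

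The lines of each genotype were compared next, a contrast that did not choose the members. Knockout line 2 had lower FEZF1-AS1 than line 1, at 328 ± 30.3 against 455 ± 30.8 CPM (SD, n = 3 each), and the 3 libraries of each line did not overlap. The log2 fold change of line 2 over line 1 was -0.51 (SE 0.17), with an edgeR adjusted p = 0.293, while DESeq2 gave -0.52 with an adjusted p = 0.0293, so the call depends on the tool, and over 12 alternatives the adjusted p ran from 0.0293 to 1.00. FEZF1 gave -0.40 (SE 0.21, edgeR adjusted p = 0.598) and FEZF2 0.23 (SE 0.40, edgeR adjusted p = 0.933). The FEZF2 value rests on single libraries, at -0.11 without knockout line 1 replicate A and 0.79 without replicate C of that line. None of the 3 passed edgeR, where 0.402% of 12442 features were called, 0.305% higher and 0.0964% lower. In simulated data this comparison recovered 7.46% of 2-fold changes, so differences of the size seen here would mostly be missed. Between the control lines FEZF1 gave -0.36 (SE 0.47) and FEZF1-AS1 -0.26 (SE 0.34), both with an edgeR adjusted p = 0.979, and FEZF2 was below the filter on low counts. The FEZF1 value was -1.08 without control line 2 replicate C and 0.005 without replicate B of that line. Of 11479 features, 0.244% were called between the control lines, 0.209% higher and 0.0348% lower. These p-values measure the spread between libraries, and in the comparisons below the 3 libraries of a line are treated as independent.

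Between day 0 and day 14 the control lines went from almost no FEZF1 counts to 18 to 57 per library. The day 14 control libraries were among those used to choose the members, so this change is a description with no test. At day 0 control line 1 held 1, 0 and 0 counts of FEZF1 and control line 2 held 0, 5 and 0, and the level went from 0.599 ± 1.24 to 12.1 ± 5.62 CPM (SD, n = 6 each) without overlap. The log2 fold change was 3.71 (SE 0.91), and 5.69 without the library with 5 counts, replicate B. FEZF1 passed the filter on low counts only through its day 14 libraries. FEZF1-AS1 gave -1.83 (SE 0.85), with overlapping days, and the value ranged from -2.17 to -1.27 when 1 library was left out. With the replicate letter as a block this fall was all but absent, as given in the last paragraph. In this comparison 44.4% of 7821 features were called, 27.3% higher and 17.1% lower, with a median of 0.45 on the log2 scale. FEZF2 was below the filter, with 0 counts of 10218530 at day 0 and 11 of 19248971 at day 14.

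The day 0 level of FEZF1-AS1 depended on the replicate letter. In replicates A, B and C, control line 1 held 8, 146 and 5 counts and control line 2 held 6, 194 and 11. Knockout line 1 held 0, 146 and 13, and knockout line 2 held 37, 69 and 7. The 4 libraries lettered B held 38.6 to 121 CPM (median 93.7) and the other 8 held 0 to 17.6 CPM (median 4.15), in both genotypes. Of 4832 features tested at day 0, 43 (0.89%) had all 4 B libraries above the other 8, and among these FEZF1-AS1 had the largest ratio of means, 15.2. The same count was 124 (2.57%) for letter A and 47 (0.973%) for letter C. The B libraries had totals of 1407832 to 1786126 counts, inside or just below the 1425141 to 2143871 of the others. At day 14 the B libraries did not stand apart for FEZF1-AS1.

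Without the day 0 B libraries, an alternative chosen after their FEZF1-AS1 values were seen, the control value turned from -1.83 to 1.36 on the log2 scale. The remaining day 0 controls held 4.36 ± 2.21 CPM (SD, n = 4, 2.86 to 7.60) and the day 14 controls 16.7 ± 3.04 CPM (SD, n = 6). No test is given, since the libraries were left out for their values of this gene. What sets the B libraries apart was not tested.

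**Figure D3:**
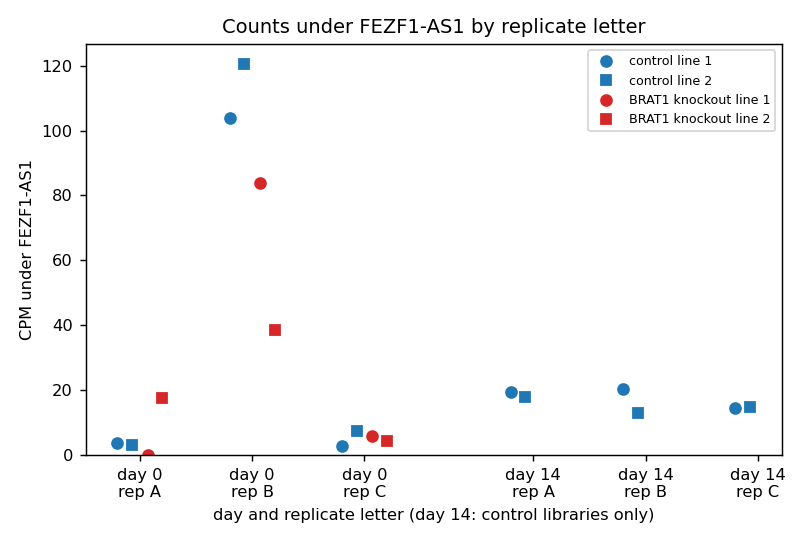
FEZF1-AS1 CPM in the 12 day 0 libraries by replicate letter, line and genotype, with the day 14 control libraries drawn beside them. At day 0 the 4 libraries lettered B lie at 38.6 to 121 CPM and the other 8 at 0 to 17.6 CPM.

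At day 0 no genotype difference was detected at either locus. FEZF1-AS1 averaged 40.3 ± 56.0 CPM over the controls and 25.1 ± 31.9 CPM over the knockouts (SD, n = 6 each), with a log2 fold change of -0.73 (SE 1.14, edgeR adjusted p = 1.00). Leaving out 1 library moved this value from -1.67, without knockout line 1 replicate B, to -0.0066, without control line 2 replicate B. With the replicate letter as a block it was 0.0573, and in the A and C libraries alone the controls held 4.36 ± 2.21 and the knockouts 7.01 ± 7.49 CPM (SD, n = 4 each). FEZF1 was at 0 in all 3 libraries of knockout line 1, knockout line 2 held 6, 1 and 0 counts of it, and FEZF2 had 0 counts in all 12 libraries. Both were below the filter. Among 4832 features 0% were called by edgeR, with 99 under 0.05 before adjustment. DESeq2 called 0 as well, with 868 under 0.05 before adjustment.

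In the knockouts the change from day 0 to day 14 is given as a description, since the day 14 knockout libraries chose the members. FEZF1 gave a log2 fold change of 7.50 (SE 0.63) and FEZF1-AS1 3.46 (SE 0.66). FEZF2 had 0 of 10788285 counts at day 0 and 546 of 18346302 at day 14, which is at least 107-fold higher against a limit of 3 counts over the day 0 group. In the controls the same bound for FEZF2 was at least 1.95-fold.

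The genes around both loci were examined within 500 kb. The window held 21 other features, of which 7 passed the filter at day 14, 3 were higher in knockouts and 0 lower, with a median log2 fold change of 0.47. Over all 11408 features tested at day 14, 21.7% were called, 11% higher and 10.7% lower, with a median of 0.07. CADPS2, which encodes a protein that primes dense-core vesicles for release, lies upstream of FEZF1 on the same strand, with its 3′ end 7.734 kb from the FEZF1 gene. Control line 1 held 20, 18 and 11 counts of CADPS2 and control line 2 held 1, 7 and 20, whereas knockout line 1 held 154, 140 and 156 and knockout line 2 held 86, 204 and 110. It rose from 4.33 ± 3.06 to 46.5 ± 13.2 CPM (SD, n = 6 each) without overlap, with a log2 fold change of 3.47 (SE 0.44, edgeR adjusted p = 1.11e-05).

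CADPS, the paralog of CADPS2, lies upstream of FEZF2, also on the same strand, with its 3′ end 24.022 kb away. Control line 1 held 0, 7 and 13 counts of CADPS and control line 2 held 13, 14 and 10, whereas knockout line 1 held 48, 20 and 33 and knockout line 2 held 18, 25 and 73. It rose from 3.09 ± 1.72 to 11.9 ± 6.95 CPM (SD, n = 6 each), with a log2 fold change of 1.94 (SE 0.53, edgeR adjusted p = 0.00847). Without control line 1 the CADPS change was 1.5 with an edgeR adjusted p = 0.0803, and over 24 alternatives the adjusted p ran from 0.0033 to 0.440. AASS, a lysine degradation enzyme gene 157.114 kb downstream of FEZF1, rose by 1.68 (SE 0.60, edgeR adjusted p = 0.0447) and lost the call in 17 of 24 alternatives.

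The nearest annotated neighbour of FEZF2 did not follow it. PTPRG-AS1, 0.351 kb downstream of FEZF2, stood at 171 ± 27.6 CPM in the controls against 186 ± 38.2 CPM in the knockouts (SD, n = 6 each), a log2 fold change of 0.11 (edgeR adjusted p = 0.658). The receptor phosphatase gene PTPRG gave 0.29 (adjusted p = 0.357) and its paralog PTPRZ1, 239.358 kb downstream of FEZF1, gave 0.22 (adjusted p = 0.641). AC004594.1, 17.778 kb upstream of FEZF1, gave 0.47 (adjusted p = 0.626).

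**Figure D4:**
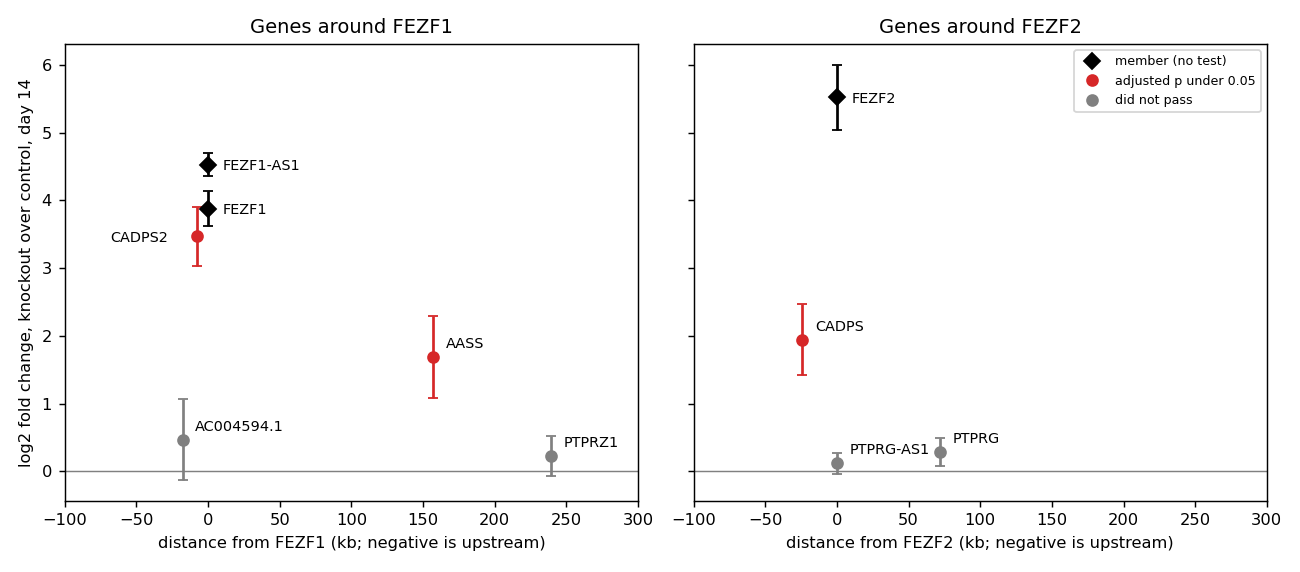
Log2 fold change of knockout over control at day 14 against distance from FEZF1 (left) and FEZF2 (right), with bars of 1 SE. CADPS2 (3.47), CADPS (1.94) and AASS (1.68) passed the edgeR test, the other 4 neighbours did not, and the members are drawn without a test.

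The partners and targets of FEZF proteins were read from lists of textbook genes. The counts from these lists and from the marker lists below stand beside 11% higher and 10.7% lower over all 11408 features tested at day 14. Lists with few tested genes cannot be told apart from that share by their counts alone. Of the TLE co-repressors 4 of 5 were tested, 1 rose and 0 fell, with a median log2 fold change of 0.73. TLE3 rose by 0.83 (SE 0.28, edgeR adjusted p = 0.0350), and 13 of 24 alternatives lost that call. Of 12 genes known downstream of FEZF1 or FEZF2, such as HES5, EOMES, LHX2 and BCL11B, 1 passed the filter. That gene was HES5, a Notch-responsive repressor that maintains progenitors, which rose from 21.0 ± 8.77 to 74.2 ± 30.3 CPM (SD, n = 6 each, log2 fold change 1.78, SE 0.27, edgeR adjusted p = 4.36e-05). Below the filter, genes of this list lay in both directions. NEUROG2 had 5.28 ± 2.88 CPM over the controls and 0.802 ± 0.851 CPM over the knockouts, and NEUROG1 2.36 ± 1.63 and 0.976 ± 1.11 CPM. LHX9 had 0.725 ± 1.13 and 3.46 ± 3.37 CPM, and LHX2 0.181 ± 0.443 and 1.59 ± 1.15 CPM (SD, n = 6 each). Of 6 known regulators of FEZF2, 4 were tested, 2 rose and 0 fell, with a median of 0.88. These were SOX11, a factor of newborn neurons (1.14, SE 0.30, adjusted p = 0.0070), and NR2F1, a nuclear receptor of cortical patterning, which went from 111 ± 13.4 to 230.3 ± 39 CPM (1.03, SE 0.14, adjusted p = 2.81e-06).

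Several factors of the rostral and caudal forebrain rose in the day 14 knockouts and 3 of the midbrain and hindbrain fell. Of 12 rostral forebrain genes 7 were tested, 4 rose and 0 fell (median 0.98). VAX1 gave -1.04 and did not pass (edgeR adjusted p = 0.198). Below the filter, HESX1 had 2.14 ± 1.23 CPM over the controls and 0.429 ± 0.592 CPM over the knockouts, and FGF8 0.564 ± 0.519 and 0.0447 ± 0.110 CPM. RAX, also below the filter, lay the other way, at 0 and 1.38 ± 0.778 CPM (SD, n = 6 each). SIX3, the homeobox factor of the anterior neural plate, rose from 8.15 ± 5.09 to 84.6 ± 33.6 CPM (SD, n = 6 each, log2 fold change 3.34, SE 0.35, edgeR adjusted p = 1.43e-06). OTX2, a factor of forebrain and midbrain identity, rose by 2.24 and EMX2, a cortical patterning factor, by 1.30, while SIX6 had 0 counts in every day 14 library. Of 8 caudal forebrain genes 3 were tested and 3 rose (median 2.56), namely the LIM homeobox factors LHX5 by 2.79 and LHX1 by 2.56, and the Wnt effector TCF7L2 by 0.47 (edgeR adjusted p = 0.0383). The TCF7L2 call did not survive 17 of 24 alternatives. BARHL1, below the filter, had 3.30 ± 1.58 CPM over the controls and 0.808 ± 1.14 CPM over the knockouts (SD, n = 6 each), and PAX7 was at 0.

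Of 11 midbrain and hindbrain genes 4 were tested, 0 rose and 3 fell (median -2.68). EN1, the midbrain-hindbrain boundary factor, fell by 2.77 (SE 0.63, edgeR adjusted p = 0.0022). HOXB3 and EGR2, both hindbrain segment factors, gave -3.08 (adjusted p = 0.0361) and -2.59 (adjusted p = 0.0294), and these calls were lost in 13 and 12 of 24 alternatives. Summed over the list, the level was 316 to 603 CPM in control libraries and 6.32 to 161 CPM in knockouts. Of 9 genes of olfactory and gonadotropin-releasing hormone neuron migration 3 were tested and 2 rose (median 0.87). Among them was EBF3, a factor of olfactory neurons (0.87, adjusted p = 0.0051), and the olfactory neuron marker OMP had 0 counts.

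Where an antisense gene shares exons with a listed gene, its name was read too. Opposite the hindbrain genes PAX8-AS1 gave -4.20 (edgeR adjusted p = 0.000486) and HOXB-AS1 -4.02 (adjusted p = 0.000505). With counts summed per line neither passed (adjusted p = 0.186 and 0.102), and over 24 alternatives the adjusted p reached no more than these. EMX2OS opposite EMX2 gave 1.64 (adjusted p = 0.0119) and NR2F1-AS1 gave 0.81 (adjusted p = 6.88e-05). Tested antisense names could also differ from the listed gene. EBF3 gave 0.87 and ENSG00000275327 opposite it -0.12 (adjusted p = 0.740), TCF7L2 gave 0.47 and ENSG00000233547 opposite it -0.21 (adjusted p = 0.380), and PAX6 gave 0.34 and ELP4 opposite it -1.13 (adjusted p = 0.143), where of these EBF3 and TCF7L2 passed. At the downstream genes, the feature opposite LHX2 (ENSG00000234921) gave 2.69 (adjusted p = 0.0056) and that opposite IRX1 (ENSG00000259603) gave -0.79 (adjusted p = 0.0051), and neither LHX2 nor IRX1 passed the filter under its own name.

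Markers of the cell types in the culture moved in the same libraries. Neural progenitor markers summed to 272 to 478 CPM in day 14 controls and 520 to 955 CPM in knockouts, and 4 of 8 tested rose and 0 fell (median 1.08), among them NES by 1.30. SOX2 gave -0.02 (edgeR adjusted p = 0.980). The names opposite them summed to 4864 to 7215 CPM in controls and 3881 to 5627 CPM in knockouts. Of these 3 were tested, 1 rose and 0 fell (median -0.27). Most of that sum was VIM-AS1, at 5654 ± 857 against 4731 ± 627 CPM (SD, n = 6 each, edgeR adjusted p = 0.0763). Neuron markers summed to 31.0 to 78.6 CPM in controls and 97.8 to 239 CPM in knockouts, and 4 of 6 tested rose and 0 fell (median 1.41), among them DCX by 1.98. Neural crest markers summed to 112 to 149 CPM in controls and 33.1 to 75.7 CPM in knockouts, and 2 of 4 tested fell and 0 rose (median -1.68), with TFAP2B at -4.44 and SOX10 at -2.85.

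Of the olfactory placode and ectoderm markers 2 of 2 tested fell, among them EYA2 by 1.56, and KRT5 had 0 counts. TP63, below the filter, lay higher in knockouts without overlap, at 0.729 ± 0.558 CPM over the controls and 5.17 ± 3.76 CPM over the knockouts (SD, n = 6 each). CDH1, also below the filter, had 0.140 ± 0.230 and 1.68 ± 2.66 CPM, and ENSG00000260798 opposite it fell by 5.34 (edgeR adjusted p = 2.13e-09). Pluripotency markers summed to 52.0 to 97.7 CPM in controls and 46.5 to 117 CPM in knockouts with 0 of 3 called (median -0.03), and mesenchyme markers had 0 of 4 called under their own names (median -0.27). Opposite them 2 of 2 tested antisense or overlapping names fell (median -1.58), ACTA2-AS1 from 153 ± 22.7 to 35.4 ± 9.01 CPM (SD, n = 6 each, -2.13, edgeR adjusted p = 5.51e-10) and PCSK7 by 1.02 (adjusted p = 0.0097). The part of these cell types in the FEZF levels was not tested. In 1 fit of all 24 libraries SIX3, HOXB3, TFAP2B, PAX8-AS1, HOXB-AS1, ENSG00000260798, ACTA2-AS1 and PCSK7 kept their calls. The other list genes given above as changed lost theirs there, as did CADPS2 (edgeR adjusted p = 0.0537), CADPS (0.440) and AASS (0.514). Leaving out 1 of the lines ended the calls of LHX1, SOX11, EMX2, EBF3, EMX2OS, PCSK7 and the features opposite LHX2 and IRX1.

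**Figure D5:**
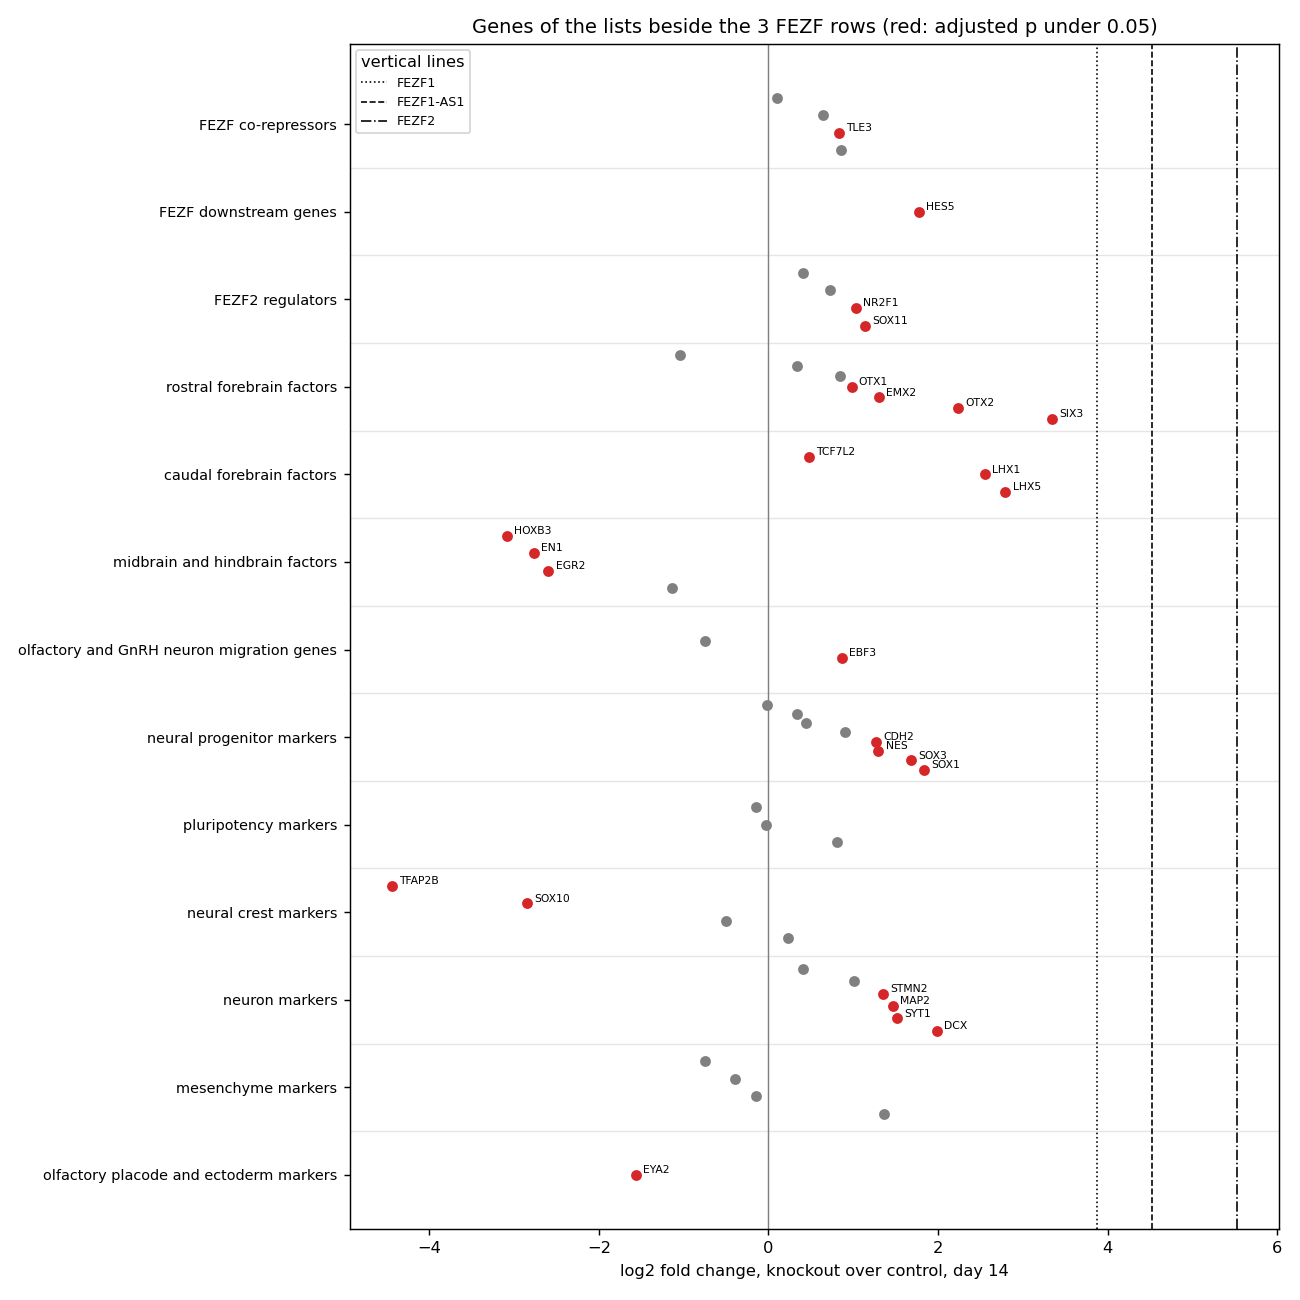
Log2 fold change of knockout over control at day 14 for each tested gene of the lists that is reported here, red where the edgeR adjusted p was under 0.05, with vertical lines at FEZF1 (3.88), FEZF1-AS1 (4.53) and FEZF2 (5.52). No gene plotted lies above FEZF1, and SIX3 at 3.34 is the nearest.

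The features whose day 14 profile was most like that of the FEZF genes were ranked by the root mean square difference of log2(CPM + 1), each profile centred on its own mean, over 12 libraries and 14780 features. For FEZF1-AS1 the 5 closest with a symbol were DLX5 (0.47), NKX2-1-AS1 (0.48), FEZF1 (0.52), FEZF2 (0.62) and DLX1 (0.66). For FEZF2 they were NKX2-1 (0.62), FEZF1-AS1 (0.62), SIX3 (0.70), NKX2-1-AS1 (0.73) and DLX5 (0.74). NKX2-1, the homeobox factor of the ventral forebrain, had 0.689 ± 0.841 CPM over the controls and 25.4 ± 13.1 CPM over the knockouts (SD, n = 6 each). DLX5 and DLX1, homeobox factors of ventral forebrain interneurons, stood at 0.103 ± 0.160 and 0.225 ± 0.262 CPM over the controls and at 24 ± 15.9 and 57.8 ± 25.5 CPM in knockouts (SD, n = 6 each). FEZF1 was closest to FEZF1-AS1, and FEZF2 was 16th in its order at 0.77. In each feature named in these rankings every knockout library lay above every control, so the profiles share the gap between genotypes and come from the same libraries.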

How the data were processed

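Poly(A) RNA of the 24 libraries was extracted with Trizol and made into Click-Seq libraries, per the labels' protocols. The authors deposited 1 table per library, with unscaled read counts for each feature. The submitters' processing notes name bcl2fastq 2.20.0, STAR 2.7.9a, featureCounts, Subread 2.0.1, DESeq2 1.34.0, R 3.5.1 and GRCh38, and neither the annotation release nor the strand setting is given in the sources used here. Features were matched by name or identifier to GENCODE release 29 (53479 of 61248).

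Counts were compared with edgeR 4.0.16 (quasi-likelihood F test, TMM, filterByExpr, robust) under R 4.3.3, with Benjamini-Hochberg adjustment over all features tested and a threshold of 0.05. SE is the log2 fold change divided by the square root of F. DESeq2 1.42.0, no filter, RLE scaling, a replicate block, line means, all 24 libraries in 1 fit, counts summed per line, leaving out features above 1% of counts, each line and each library were tried as alternatives. The tests were tested on simulated data. In the day 14 genotype comparison 19.4% of 2-fold, 97.0% of 4-fold and 100% of 8-fold changes were recovered, with 7 false calls among 11119 genes. Between the knockout lines these were 7.46%, 55.2% and 100%, with 5 false calls among 11796. The members, lists and rules were chosen with earlier results of these data known. Named genes are the members, tested features within 500 kb, up to 3 per list, direction and strand with the smallest adjusted p, and the 5 most like FEZF1-AS1 and FEZF2 with a mean CPM of at least 2. Some features that meet this rule are not reported here.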

Additional observations from a re-analysis of the deposited data

Results flagged for a closer look

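In 22 groups of 6 libraries, 1 per gene, day and genotype, the highest or lowest library was checked for a gap to the others that exceeds Dixon's 95% critical value. For normally distributed values chance passes it in about 1 of 20 groups, a rate that does not hold for groups near 0 counts. There were 3 such groups, all at day 0. FEZF1 reached 3.11 CPM (5 counts) in control line 2 replicate B, with 0 or 1 count in the other 5 controls. FEZF1 reached 2.85 CPM (6 counts) in knockout line 2 replicate A, with 0 or 1 count in the other 5 knockouts. AASS, near FEZF1, reached 41.4 CPM (74 counts) in knockout line 2 replicate B, with 0 to 7 counts in the other 5 knockouts.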

How the results depend on the processing

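In the day 14 genotype comparison 2474 features passed, against 311 with all 24 libraries in 1 fit, 1552 without control line 1 and 1266 without control line 2. Over 24 alternatives the log2 fold change was 3.62 to 4.05 for FEZF1, 4.21 to 4.74 for FEZF1-AS1 (4.21 without knockout line 1) and 4.97 to 6.24 for FEZF2 (6.24 without control line 1), always higher in knockouts. The neighbours that did not pass changed sign in some settings. PTPRZ1 was -0.0496 without control line 2, AC004594.1 -0.19 without knockout line 2, PTPRG -0.0692 without knockout line 1, and PTPRG-AS1 -0.22 without knockout line 1, -0.0413 with counts summed per line and -0.0073 without knockout line 1 replicate B, where leaving out 1 library gave -0.0073 to 0.19.

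Between the knockout lines 50 features passed, against 154 with DESeq2, 129 with no filter, 2 with all 24 libraries in 1 fit and 22 to 140 when 1 library was left out. There FEZF1-AS1 was -0.52 with DESeq2 (adjusted p = 0.0293) and FEZF2 ranged from -0.11 to 0.79 when 1 library was left out. Between the control lines 28 passed, against 86 with no filter, 0 with all 24 libraries in 1 fit and 21 to 57 with 1 library left out, and FEZF1 ranged from -1.08 to 0.00502 in the last case. From day 0 to day 14 in controls 3475 passed, against 7358 with DESeq2, 7266 with no filter and 6223 with all 24 libraries in 1 fit. FEZF1-AS1 there ranged from -2.17 to -1.27 with 1 library left out and was 1.36 without the day 0 B libraries. Between genotypes at day 0, 0 passed, against 13 with no filter and 8 with all 24 libraries in 1 fit. Except for settings with fewer samples, the cause was not tested.

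Replicate letters were shared between groups, and the labels do not say that a letter marks a batch. Deviations of same-letter libraries correlated at 0.0605 to 0.232 at day 0 and -0.155 to 0.0852 at day 14. All 18 day 0 comparisons, but 5 of 18 at day 14, were highest for the same letter. Day 0 libraries of the same letter were therefore alike, though weakly, and the main fits leave the letter out. Values that use day 0 libraries are to be read with those under the block. With a replicate block 2256 features passed in the day 14 genotype comparison, 184 between knockout lines, 40 between control lines, 3633 between days and 0 at day 0. FEZF1-AS1 under the block was -0.04 between days in controls and 0.0573 between genotypes at day 0. FEZF2 held 0 to 4 counts per library in day 14 controls and 0 at day 0, and FEZF1 held 0 to 6 at day 0. Ratios that rest on these counts are imprecise.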
